A study of Homo sapiens with 6 samples.

Results

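The ID genes and the genes that feed back on bone morphogenetic protein (BMP) signalling were described in AB 8/13 cells, human podocytes immortalized by a gene that is active only at a lower culture temperature. There were 10 members: ID1, ID2, ID3, ID4, SMAD6, SMAD7, SMAD9, BAMBI, BMP4 and GREM1. Each matched 1 row of the 20745 genes in the deposited table. They were picked by gene symbol and were selected on earlier results of the levamisole comparison in the same table, so nothing here is an independent test of that comparison. The study compared 3 cultures treated with 1 µM levamisole, an anthelminthic with immunomodulatory properties, with 3 vehicle cultures, each for 24 h and each from a different passage according to the methods. The labels place both groups in medium without serum, whereas according to the methods vehicle cultures were kept in complete medium, and a difference in serum and the treatment cannot be told apart. The libraries came from a CEL-seq protocol, in which cDNA starts at the poly(A) tail so that most reads come from the 3′ ends of mRNAs.

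The level used for every gene was the base mean, the authors' mean of normalized read counts over the libraries of their fit. It pools vehicle and levamisole cultures into 1 value per gene. It therefore has no error, and no difference between the groups could be measured from it. Which libraries the fit held, and how deep each was, is unknown. A base mean of at least 5 was taken as detected. The number is from the methods, but there it is a minimum of reads in each sample. A pooled mean of 5 is a looser rule, and whether each library met the authors' minimum is unknown. The levels describe cultures as a whole, in which fewer expressing cells and less RNA per cell cannot be told apart, and an order between genes is a description without a test.

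BMP ligands bind pairs of type I and type II receptor kinases, which phosphorylate SMAD1, SMAD5 and SMAD9. These enter the nucleus with SMAD4 and switch on target genes, of which the ID genes are the best known. ID proteins have a helix-loop-helix but no DNA-binding region, so they take E proteins out of the dimers that bind DNA. The pathway also induces its own brakes: SMAD6 and SMAD7 act inside the cell, BAMBI is a receptor-like protein without a kinase, and GREM1 is a secreted protein that binds BMP4 and related ligands.

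Promoter sequences of 4 members are shown. In the bases searched, those of BAMBI, GREM1 and SMAD6 held the SMAD-type motifs that differed most between members. That of ID1 held none but the common one. Bases further upstream were not searched. Each sequence is the 250 bases before a RefSeq transcription start in GRCh38.p14. It is written 5′ to 3′ on the gene's strand, which was the plus strand for all 4. Capitals mark GGCGCC, a GC-rich element bound by SMAD proteins, in BAMBI (chr10:28677271-28677520) and GREM1 (the first of its 2 starts, chr15:32717754-32718003). They mark GTCTAGAC, a palindrome made of a pair of SMAD half-sites, in SMAD6 (chr15:66701986-66702235). In ID1 (chr20:31605039-31605288) they mark the half-site GTCT or its reverse complement AGAC.
BAMBI: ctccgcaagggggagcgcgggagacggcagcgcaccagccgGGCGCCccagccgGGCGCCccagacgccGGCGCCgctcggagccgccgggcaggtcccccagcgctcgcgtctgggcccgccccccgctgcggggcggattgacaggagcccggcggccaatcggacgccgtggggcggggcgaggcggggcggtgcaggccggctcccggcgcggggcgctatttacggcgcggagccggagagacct
GREM1: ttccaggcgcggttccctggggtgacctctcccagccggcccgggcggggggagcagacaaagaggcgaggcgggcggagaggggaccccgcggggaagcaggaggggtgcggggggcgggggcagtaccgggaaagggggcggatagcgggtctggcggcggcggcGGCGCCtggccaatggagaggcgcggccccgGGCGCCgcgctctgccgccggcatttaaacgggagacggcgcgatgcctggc
SMAD6: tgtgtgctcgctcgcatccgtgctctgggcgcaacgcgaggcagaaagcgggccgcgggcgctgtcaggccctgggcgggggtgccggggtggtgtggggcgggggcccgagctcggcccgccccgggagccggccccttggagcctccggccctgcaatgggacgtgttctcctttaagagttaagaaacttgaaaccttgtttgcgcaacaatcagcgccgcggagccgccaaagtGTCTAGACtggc
ID1: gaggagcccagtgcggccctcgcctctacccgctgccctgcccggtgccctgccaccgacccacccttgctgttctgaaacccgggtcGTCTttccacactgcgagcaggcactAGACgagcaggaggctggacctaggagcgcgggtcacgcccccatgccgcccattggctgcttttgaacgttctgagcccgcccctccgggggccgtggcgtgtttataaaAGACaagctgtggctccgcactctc

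Motifs were counted on both strands in windows from 250 bases before to 50 bases after each start. All 10 members had a window, and 15 windows in all, because SMAD7 and BMP4 have 3 starts and GREM1 has 2, numbered by their coordinate. The element GGCGCC was present in 3 of the 15 windows, those of BAMBI, GREM1 and BMP4 named below. Of all 35116 windows 19.2% held it, so its presence did not set the members apart. BAMBI held it 3 times, at -209, -196 and -181 from the start, a number reached by 0.871% of all windows. GREM1 held it at -83 and -52 before its first start, and BMP4 at -232 and 2 around the third of its starts. At least 2 copies were present in 4.35% of all windows. BAMBI's window had 80.0% G and C and the GREM1 window 77.0%, against a median of 58.7% over all windows. Among the 3377 windows with at least 75% G and C, 56.4% held GGCGCC, 19.9% at least 2 times and 5.36% at least 3 times, so the element was common at that base composition. The windows of SMAD9 and ID4 had a similar composition, at 79.7% and 76.3%, and held 0 copies.

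The palindrome GTCTAGAC, searched for after the half-sites of SMAD6 were seen to touch, was present in 71 of the 35116 windows (0.202%). Among the members only the SMAD6 window held it, 12 bases before the start. Half-sites also touched at the third start of SMAD7, at -127 and -123. There they stood in the other order, AGACGTCT, also a palindrome, which was not counted over all windows. The half-site GTCT was present in all 15 windows, but 84.0% of all windows held it, so its presence did not set the members apart. The number of half-sites ranged from 1 in ID4 to 5 at the second start of SMAD7, and the ID1 window held 3. The E-box CANNTG, to which E proteins bind, was present in 7 of the 15 windows, and 68.7% of all windows held it. The windows of ID1, ID3, BAMBI and GREM1 held 0 E-boxes. These are matches of letters in short windows, and binding was not measured.

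**Figure D1:**
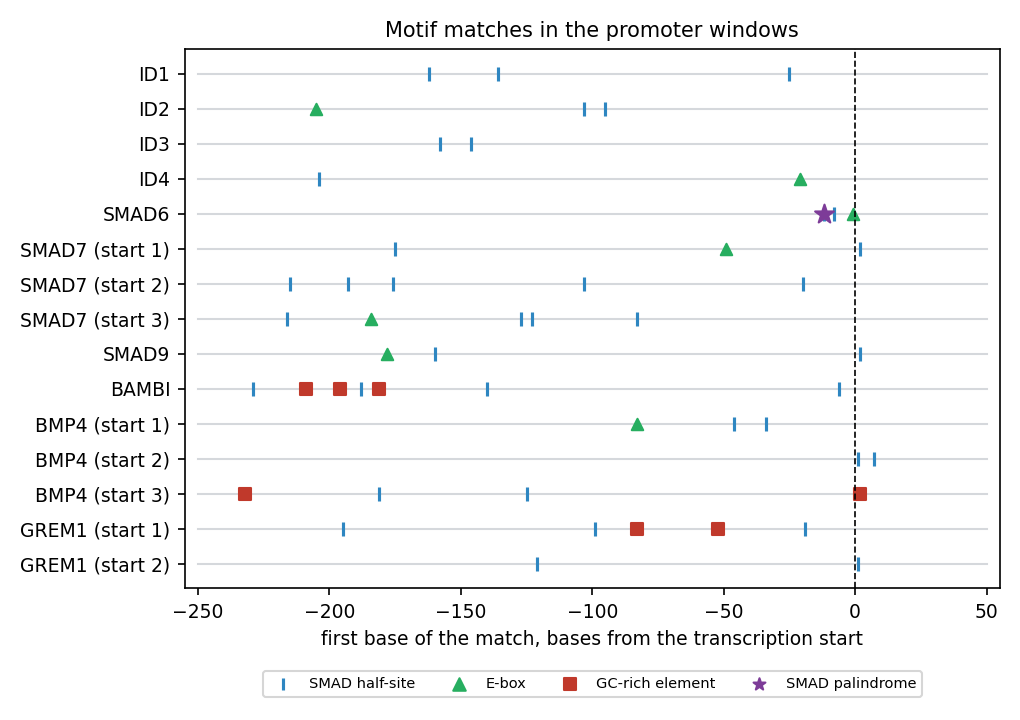
Motif matches in the 15 promoter windows of the 10 members, with the first base of each match on the x axis in bases from the transcription start and 1 line per start. BAMBI holds 3 GC-rich elements between -209 and -181, the palindrome GTCTAGAC appears in SMAD6 alone, and the half-site is found on every line.

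The ID genes differed widely in level among themselves. ID1 had a base mean of 289, ID3 of 72.5, ID2 of 39.96 and ID4 of 5.07. Of the sum over the family, ID1 made up 71.1%, ID3 17.8%, ID2 9.82% and ID4 1.25%. Per kb of the longest annotated transcript the order was the same, with 235 for ID1, 76.3 for ID3, 19.6 for ID2 and 1.31 for ID4. ID1 lay at the 86.3 percentile of base means over all genes, ID3 at 65.7, ID2 at 57.1 and ID4 at 35.8. Over the genes that reached a base mean of 5 these fell to 78.7, 46.7, 33.3 and 0.176. ID4 lay just above the detection minimum, and no member lay under it.

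The E proteins, the partners that ID proteins withhold from DNA, were close to each other in level. Their base means were 204 for TCF12, 177 for TCF3 and 174 for TCF4. ID1 was higher than each of them both as counted and per kb, where the values were 33.3, 37.4 and 20.8. ID2 and ID4 were lower than each of them on both scales. Per kb, however, ID2 at 19.6 was close to TCF4, and no error is known that would separate them. ID3 was lower as counted and higher per kb, so its place depends on the scale. Which scale suits reads from 3′ ends was not tested.

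Among the SMAD members, SMAD7 was the highest. SMAD7, which blocks type I receptors of both the BMP and the TGF-beta branch, had a base mean of 96.6. SMAD6, which acts mainly on the BMP branch, had one of 16.4. SMAD7 was 5.88 times SMAD6 as counted and 9.15 times per kb of the longest transcript. SMAD9, also known as SMAD8, had a base mean of 17.6 and was the lowest of the 6 transducing SMADs. SMAD5 had a base mean of 299 and SMAD1 of 71.9, which made up 77.0% and 18.5% of the sum of the 3 BMP-activated SMADs, and SMAD9 4.54%. The excess of SMAD5 over SMAD9 was 16.96-fold as counted and 13.4-fold per kb. SMAD9 and SMAD6 differed by 1.08-fold as counted and 1.01-fold per kb of the longest transcript but 1.54-fold per kb of all exons joined, and no error is known that would separate them. SMAD6 lay at the 47.0 and SMAD9 at the 47.8 percentile of all genes, both below the median gene, and over the genes that reached a base mean of 5 at 17.6 and 18.7.

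BAMBI had a base mean of 26.1, 13.8 per kb, and lay at the 51.9 percentile, next to the median gene at 21.8. Over the genes that reached a base mean of 5 it lay at the 25.2 percentile. Of the receptor kinases analysed, BMPR2, a type II receptor, had a base mean of 659, ACVR1 of 331 and BMPR1A of 289, all above BAMBI. BMPR1B at 3.72 and ACVR2B at 7.93 were below BAMBI, and ACVR2A was above it as counted at 35.6 but below it per kb at 6.83. BMPR1A was 11.1 times BAMBI as counted and 3.26 times per kb of the longest transcript.

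The secreted members were the most abundant as counted. GREM1 had a base mean of 2429, exceeded by 230 of the 20745 genes. BMP4 had a base mean of 784, exceeded by 1020 genes. GREM1 was 3.10 times BMP4 as counted but 0.411 times BMP4 per kb of the longest transcript. GREM1's longest transcript spans 14575 bases and that of BMP4 1931, so the order of ligand and antagonist depends on the scale. In libraries of 3′ ends a long transcript does not give more reads, and how far that held here was not tested. The order also turned between GREM1 and ID1 and between SMAD7 and ID3. For the other 42 of the 45 pairs of members it was the same as counted, per kb of the longest transcript and per kb of all exons joined.

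**Figure D2:**
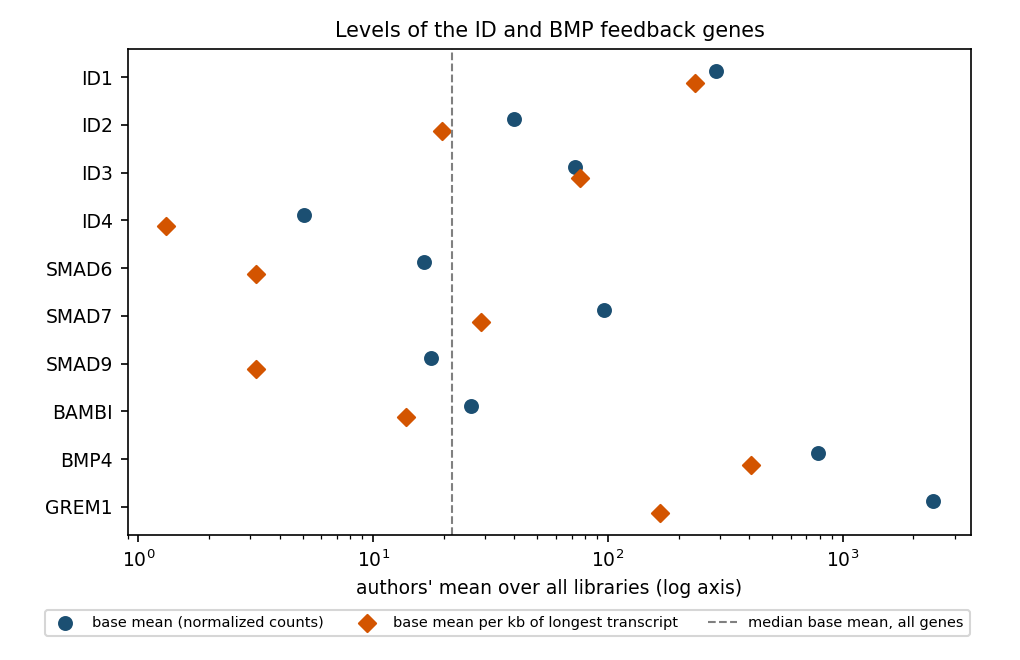
Base mean of the 10 members (circles, normalized counts) and base mean per kb of the longest transcript (diamonds) on a log axis, with the median base mean of all genes as a dashed line. No error bars can be drawn for pooled values. GREM1 is highest as counted at 2429 and BMP4 per kb at 406, while ID4 is lowest on both scales.

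Together the members took up 0.0595% of the summed base means, of which 34.8% lay in the 22 mitochondrial genes. All 10 had a base mean of at least 5, which 64.3% of all genes in the table reached, and 7 of them were above the median gene. Since they had been selected on results for which reads were needed, that count is a description of the choice. Their median percentile was 61.4.

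The rest of the pathway was taken from lists of 65 genes in all, members included, of which 52 were found by symbol and analysed. A base mean of at least 5 was reached by 42 of the 52, or 80.8%, beside 64.3% of all genes. The 42 include all 10 members, which were selected on results for which reads were needed. Listed genes that were not found are left out of the 52. Of the BMP ligands, 7 of 14 were analysed and 5 reached 5. BMP4 made up 85.1% of the ligands' summed base means. GDF5, a ligand of joint and limb development, followed with a base mean of 78.5, and BMP2 with 33.1. BMP4 was 9.99 times GDF5 as counted and 13.3 times per kb. The lowest ligands were GDF7 at 2.35 and BMP6 at 1.06. BMP7, a ligand known for its role in nephron formation, was not found by symbol among the 20745 genes.

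Of the secreted antagonists, 10 of 14 were analysed and 7 reached 5. GREM1 was the highest as counted and made up 59.97% of their sum, but 25.3% per kb of the longest transcript. TWSG1, which can both help and hinder BMP ligands, had a base mean of 1098 and was higher than GREM1 per kb, at 293 against 167. CHRDL1 had a base mean of 212, NBL1 of 171 and NOG, which encodes noggin, of 89.7. BMPER was at 0.540, the only pathway gene at or under 1.

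All 6 genes among the inhibitory SMADs and their partners reached 5. SMURF2, a ubiquitin ligase recruited by SMAD7, had a base mean of 1018 and was 10.5 times SMAD7 as counted and 5.64 times per kb. The corepressors SKI and SKIL had base means of 744 and 305. SMAD6 and SMAD7 were thus the lowest genes of that list as counted. All 6 transducing SMADs reached 5 as well, from 17.6 for SMAD9 to 468 for SMAD2, with SMAD3, which carries the TGF-beta signal, at 207. Of 12 receptors and co-receptors, 10 were analysed and 8 reached 5, with RGMA at 1.51 and BMPR1B at 3.72 under it.

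Among the 10 transcriptional targets, 7 reached 5, and ID1, ID3 and ID2 were the highest. MSX2, a homeobox gene, had a base mean of 16.5 and MSX1 of 8.15. HEY1, GATA2 and GATA3 were under 5, with values of 2.98, 2.30 and 1.54. The median of this list was 7.60, below the 21.8 of all genes, while the medians of the E proteins, the transducing SMADs and the inhibitory SMADs with their partners were 177, 172 and 263.

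**Figure D3:**
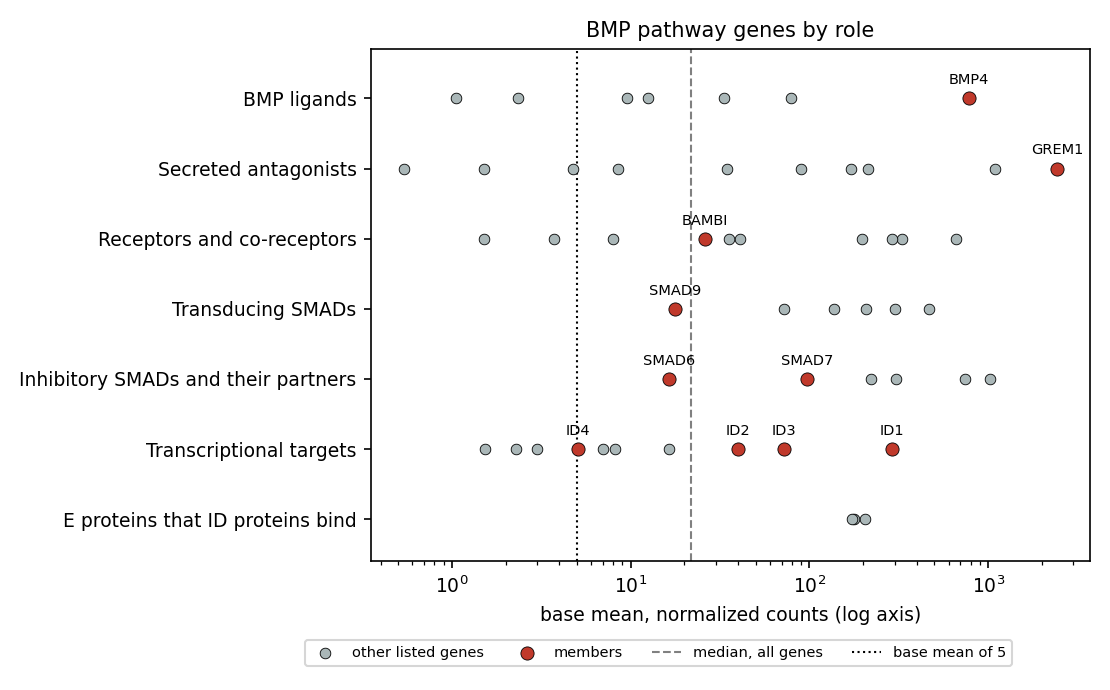
Base means of the 52 analysed BMP pathway genes on a log axis, 1 line per role, with members in red and other listed genes in grey. The dashed line is the median of all genes (21.8) and the dotted line the detection minimum of 5. BMP4 and GREM1 are the rightmost genes of their lines, and SMAD9 and SMAD6 the leftmost of theirs.

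The label of the cells was checked against marker genes. Of the podocyte markers, 6 reached a base mean of 5: CD2AP at 929, TJP1 at 247, SYNPO at 22.8, NES at 18.1, PODXL at 15.3 and WT1 at 6.21. PTPRO, a receptor-type phosphatase of podocytes, was at 0.333, and NPHS1, which encodes nephrin, was not found by symbol. CD2AP and TJP1 are expressed in many cell types. All 3 endothelial markers analysed were under 1, with TEK at 0.690, VWF at 0.434 and CDH5 at 0.306. Of the 4 leukocyte markers analysed, CD14 was at 2.40, CD68 at 1.06, PTPRC at 0.832 and CD79A at 0.529. Among the mesangial and smooth muscle markers ACTA2 was at 1021, MYH11 at 66.9 and PDGFRB at 4.14, and among the tubular markers AQP1 was at 243, CUBN at 1.219 and SLC34A1 at 0.900. The part of these genes in the levels of the members was not tested.

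The members lie on 9 chromosomes of GRCh38 (GENCODE 44), and SMAD6 and GREM1 share chromosome 15. ID1 (ENSG00000125968) spans chr20:31605283-31606515 on the plus strand and ID3 (ENSG00000117318) chr1:23557926-23559501 on the minus strand. ID2 (ENSG00000115738) lies at chr2:8678845-8684461 and ID4 (ENSG00000172201) at chr6:19837370-19842197, both on the plus strand. SMAD6 (ENSG00000137834, chr15:66702236-66782849, plus), SMAD7 (ENSG00000101665, chr18:48919853-48950965, minus) and SMAD9 (ENSG00000120693, chr13:36844831-36920887, minus) are longer genes. BAMBI (ENSG00000095739) spans chr10:28677510-28682932 on the plus strand, BMP4 (ENSG00000125378) chr14:53949736-53958761 on the minus strand and GREM1 (ENSG00000166923) chr15:32718004-32745106 on the plus strand. All 10 are protein-coding, with 2 to 7 exons in the canonical transcript.

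Reads near a 3′ end can be lost where another gene covers it or where a related gene has the same letters. In GENCODE 44, exons of other genes covered 0 of the last 500 exonic bases of the canonical transcript, on either strand, for all 10 members. None of the 441 windows of 60 bases in these ends, the length of the sequenced read, occurred in a transcript of another gene. The ID genes, though one family, thus shared no read-length stretch at their ends. The authors counted with Ensembl 95, and whether the ends are the same there was not checked.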

How the data were processed

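RNA was sequenced from 3 vehicle and 3 levamisole cultures. Following the submitters' processing notes and the methods, the authors trimmed reads with Trim Galore 0.4.5 and cutadapt 1.18, mapped them to GRCh38 (Ensembl 95) with STAR 2.7.5a, counted them with HTSeq 0.11.0 and ran DESeq2 1.22.0 in R 3.5.3. An alignment with BWA is given in the methods as well. The base mean is a signal that the authors deposited, the mean of counts divided by size factors. The same table holds the authors' own comparison (per gene, log2 fold changes, standard errors, Wald statistics and p-values before and after adjustment), which was not used here. It holds no value per culture, so no test was run.

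From the base means, percentiles, levels per kb and shares were computed with Python 3.11.15, NumPy 2.4.6 and pandas 2.3.3, and figures were drawn with matplotlib 3.10.9. Lengths and positions are from GENCODE 44, to which 20599 of 20745 gene identifiers matched. Promoter sequences are from RefSeq. The percentile, joined exon length and motif search calculations were tested on simulated data, and the other calculations were not. The genes named are the members, the highest 3 of each list, those at or under 1, and genes set beside a member or near the detection minimum, the last chosen after their values were seen. Members and lists were chosen with earlier results of these data known. Alternatives were other base mean minimums, other reference sets and scales per kb. Results for some marker genes are not reported here.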

Additional observations from a re-analysis of the deposited data

How the results depend on the processing

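All 10 members were detected at a base mean minimum of 1 or 5, 9 at 10 and 5 at 50. Of the 52 pathway genes, 42 reached a minimum of 5, 51 a minimum of 1, 36 a minimum of 10 and 26 a minimum of 50. The 7 members above the median gene stayed 7 per kb of the longest transcript, per kb of all exons and without the 22 mitochondrial genes, and became 5 over protein-coding genes and 4 over genes that reached the minimum of 5, since those sets leave out genes of low level. Per kb of the longest transcript, 8 members moved by more than 5 percentile points, 6 members rising and 4 falling among all 10. No paired analysis was possible because the table has no value per culture. For the same reason leaving out replicates and refits of counts were not run. The depth of the libraries is unknown, and ID4, at 5.07, lies next to the detection minimum.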
